A study of Mus musculus with 20 samples.

Results

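Slc40a1 encodes ferroportin, the membrane protein through which iron leaves cells. The gene was taken as every probe set that the platform annotation pairs with the symbol Slc40a1. That gave 2 probe sets, 1448566_at and 1417061_at, of 45101 on the array, and 1 gene of the 18194 that have a symbol of their own. The symbol is present in the RefSeq gene table, and both probe sets were bright enough to be tested.

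The series measured which mouse mRNAs are recovered with IRP2, an RNA-binding protein of iron metabolism, in 5 tissues. Purified His-tagged IRP2 made in E. coli was mixed with 50 µg of pooled total RNA, and an antibody against the tag pulled the complexes down; the control reaction lacked IRP2 but held the same antibody and RNA. About 120 ng of recovered RNA was amplified over 2 cycles and hybridised to Affymetrix Mouse Genome 430 2.0 arrays, 2 IRP2 arrays and 2 control arrays per tissue, 20 in all. The binding therefore took place in a tube, with purified RNA and added protein.

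The groups were the IRP2 and control reactions of duodenum, liver, spleen, bone marrow and brain, all from C57BL6/J mice of mixed sex. Duodenum, liver and spleen each came from 4 pooled mice that ate a diet with under 10 mg iron per kg for 21 days after weaning, in both reactions alike. Bone marrow and brain each came from 6 pooled mice aged 8 to 10 weeks that ate a diet with normal iron. Diet and age thus go with tissue and cannot be told apart from it. The labels do not say whether the replicates of a tissue share a pool of RNA, so the p-values reflect no more than the spread between arrays, which may be technical.

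Ferroportin is the only iron exporter known in vertebrates. It stands on the basolateral side of duodenal enterocytes, on macrophages that recycle iron from red cells in spleen and liver, and on hepatocytes. The liver hormone hepcidin binds ferroportin and has it degraded. Its mRNA carries an iron-responsive element (IRE), a hairpin that IRP1 and IRP2 bind when iron is scarce, in the untranslated region ahead of the coding sequence, where a bound IRP blocks translation. A second mouse transcript, known from duodenum and erythroid precursors, starts elsewhere and lacks this element.

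The tissues carried their labelled markers. The mean level of each tissue's own markers was higher on all 4 of its arrays than on any array of another tissue, and on no array was an own marker below the array's median. Markers of pancreatic acinar cells averaged 5.96 to 6.22 above the median on duodenum arrays, against 4.74 to 5.43 for duodenum's own (log2). On spleen arrays they averaged 3.43 to 3.99. Liver markers on spleen arrays averaged 0.05 to 0.07 in replicate 1 and 2.56 to 2.62 in replicate 2. The part of such RNA in the Slc40a1 values was not tested. The array medians lay between 5.65 and 5.71 (log2) for duodenum and liver, 5.39 and 5.41 for spleen, 5.47 and 5.55 for bone marrow and 5.41 and 5.67 for brain. Levels are therefore compared between tissues only after each array's median was subtracted. Control array 1 of bone marrow stood apart: its rank correlation with the spleen arrays averaged 0.908, while the other bone marrow arrays had 0.824 to 0.825. The mean of its 6 bone marrow markers was 6.49 above the array median (log2), against 4.96 to 5.61 on the other bone marrow arrays.

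On probe set 1448566_at, Slc40a1 was recovered more with IRP2 than without it in each of the 10 pairs of arrays that share a tissue and a replicate number. The IRP2 minus control ratio ran between 0.33 and 2.20 per pair, with a median of 1.73 (log2). Its mean over the 5 tissues was 1.61 ± 0.11 (limma SE, n = 20 arrays), a 3.04-fold difference with an adjusted p of 1.18e-06. That put it 11th from the highest of the 30153 probe sets tested, of which 0.365% were called higher on the mean. The brain part of this mean and fold rests on controls not shown to lie above background, as given below. Both IRP2 arrays lay above both control arrays in 5 of 5 tissues, which 0.229% of tested probe sets did.

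**Figure D1:**
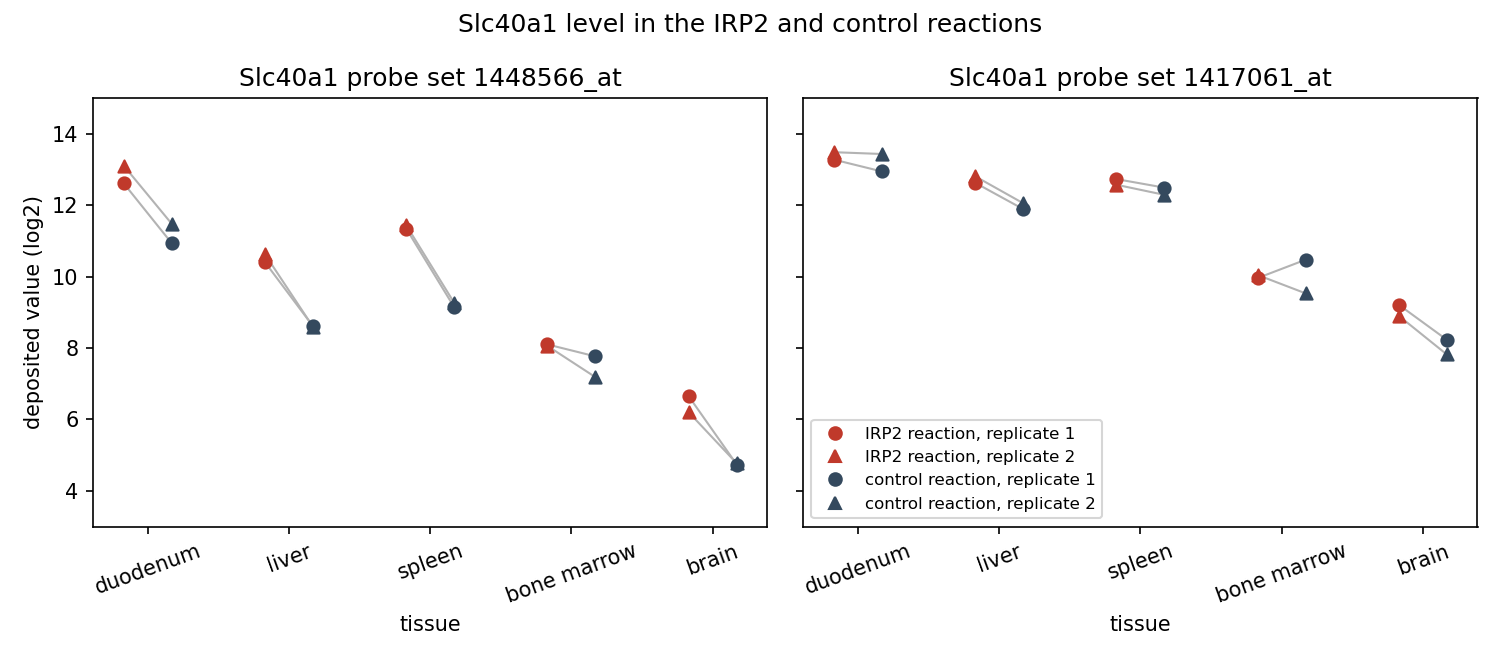
Deposited level of Slc40a1 (log2) on each of the 20 arrays, by tissue, for probe set 1448566_at (left panel) and 1417061_at (right panel), with IRP2 arrays left of their control arrays and grey lines joining arrays of the same replicate number. On 1448566_at every line falls toward the control array, and on 1417061_at 9 of 10 lines do, the exception being bone marrow replicate 1.

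In duodenum, where ferroportin passes absorbed iron to the blood, 1448566_at read 12.61 and 13.11 in the IRP2 reactions, against 10.93 and 11.48 in the controls (log2, replicates 1 and 2). Both IRP2 arrays were above both controls, as for 14.4% of tested probe sets, and replicate 2 was the brighter in both reactions. The ratio was 1.65 ± 0.25 (log2, SE), 3.14-fold, with an adjusted p of 0.0182 where 0.073% of probe sets were called higher. Here and below, the SE rests on a spread pooled over all groups of tissue and reaction. It is therefore the same in every tissue for a probe set and does not show that tissue's own spread. Without control 1 it was 1.38 with an adjusted p of 0.512, and without IRP2 array 2 it was 1.41 with an adjusted p of 0.542.

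In liver, whose hepatocytes and resident macrophages export stored iron, the IRP2 arrays read 10.40 and 10.62 on 1448566_at, against 8.61 and 8.60 in the controls (log2). The control arrays differed by far less than the distance to either IRP2 array, and 13.9% of tested probe sets separated the reactions in the same direction. The ratio was 1.91 ± 0.25 (log2, SE), 3.76-fold, with an adjusted p of 0.00653 and 0.0332% of probe sets called higher. Leaving out any 1 of the 4 liver arrays kept the ratio between 1.80 and 2.02, with adjusted p between 0.0879 and 0.220, so no call remained.

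In spleen, the main site where macrophages recycle red-cell iron, 1448566_at read 11.34 and 11.44 with IRP2, against 9.14 and 9.26 without it (log2). Replicates differed little and the reactions stood well apart, as 15.6% of tested probe sets did by order alone. This was the highest ratio of the 5 tissues on this probe set, 2.19 ± 0.25 (log2, SE), 4.56-fold, with an adjusted p of 0.00143. It ranked 9th of 30153, with 0.063% of probe sets called higher. Leaving out 1 array at a time kept the ratio between 2.13 and 2.25 (log2), and the least favourable of these fits only just passed the test.

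In brain, 1448566_at was dim in the controls, at 4.74 and 4.77, against 6.65 and 6.20 with IRP2 (log2). The control mean of 4.76 lay below the 10th percentile of tested probe sets there (4.86), while both IRP2 arrays were clearly brighter; 4.21% of probe sets separated the reactions this way. The difference was 1.67 ± 0.25 (log2, SE), with an adjusted p of 0.0163 and 0.0597% of probe sets called higher. The values used here carry no detection call, so a control signal above background is not shown and no fold is given. Without IRP2 array 1 it was 1.45 with an adjusted p of 0.243. Without control 1 the adjusted p was 0.179, and without control 2 it was 0.122, with ratios of 1.65 and 1.69.

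In bone marrow, the tissue with the lowest ratio, 1448566_at read 8.10 and 8.06 with IRP2, against 7.77 and 7.18 without it (log2). The IRP2 arrays were nearly equal and lay above both controls, as for 14.5% of tested probe sets, but the controls were spread over a wider range than the IRP2 arrays. The ratio of 0.61 ± 0.25 (log2, SE), 1.52-fold, did not pass the test, with an adjusted p of 0.734 and 0.00995% of probe sets called higher. Without control array 1, which stood apart, it was 0.90 ± 0.28 with an adjusted p of 1.0, a fit in which a single control array is assumed to vary like the other groups.

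Probe set 1417061_at, for the same gene, gave lower ratios. Its IRP2 minus control ratio was above 0 in 9 of 10 pairs, between -0.51 and 1.08 with a median of 0.42 (log2). The mean over tissues was 0.45 ± 0.12 (SE), 1.36-fold, 232nd from the highest of 30153, and did not pass the test, with an adjusted p of 0.356. With replicate pairs as a block, the same mean had an adjusted p of 0.0303 in limma, and 1.07% of probe sets were then called higher. Without bone marrow control 1 it was 0.54 ± 0.10, with an adjusted p of 0.0278.

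Brain gave the highest ratio on 1417061_at, with 9.21 and 8.90 in the IRP2 reactions, against 8.23 and 7.82 in the controls (log2). The reactions did not overlap, and replicate 1 was brighter in both. The ratio was 1.03 ± 0.28 (SE), 2.04-fold and 57th of 30153, with an adjusted p of 1.0. With replicate pairs as a block, limma gave 1.03 ± 0.20 with an adjusted p of 0.116.

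In liver the same probe set read 12.63 and 12.81 with IRP2, against 11.89 and 12.06 without it (log2). Again the reactions did not overlap, and the pair ratios of 0.74 and 0.75 were almost the same. The estimate was 0.75 ± 0.28 (SE), 150th of 30153, with an adjusted p of 1.0. With the block, limma gave 0.75 ± 0.20 with an adjusted p of 0.351.

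Spleen, with the highest ratio on the first probe set, read 12.73 and 12.57 with IRP2 on 1417061_at, against 12.49 and 12.29 without it (log2). The reactions were separate by a narrow margin. The ratio was 0.26 ± 0.28 (SE), and the pair ratios were 0.24 and 0.28.

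In duodenum 1417061_at was near the top of the array in both reactions, at 13.28 and 13.48 with IRP2, against 12.94 and 13.43 without it (log2). The reactions overlapped, and the ratio was 0.19 ± 0.28 (SE). In bone marrow it read 9.96 and 10.05 with IRP2, against 10.47 and 9.53 without it. There both IRP2 arrays fell between the controls, and the pair ratios of -0.51 and 0.51 averaged to 0.00 ± 0.28 (SE). Without control 1 of bone marrow the ratio was 0.47 ± 0.26, with an adjusted p of 1.0.

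**Figure D2:**
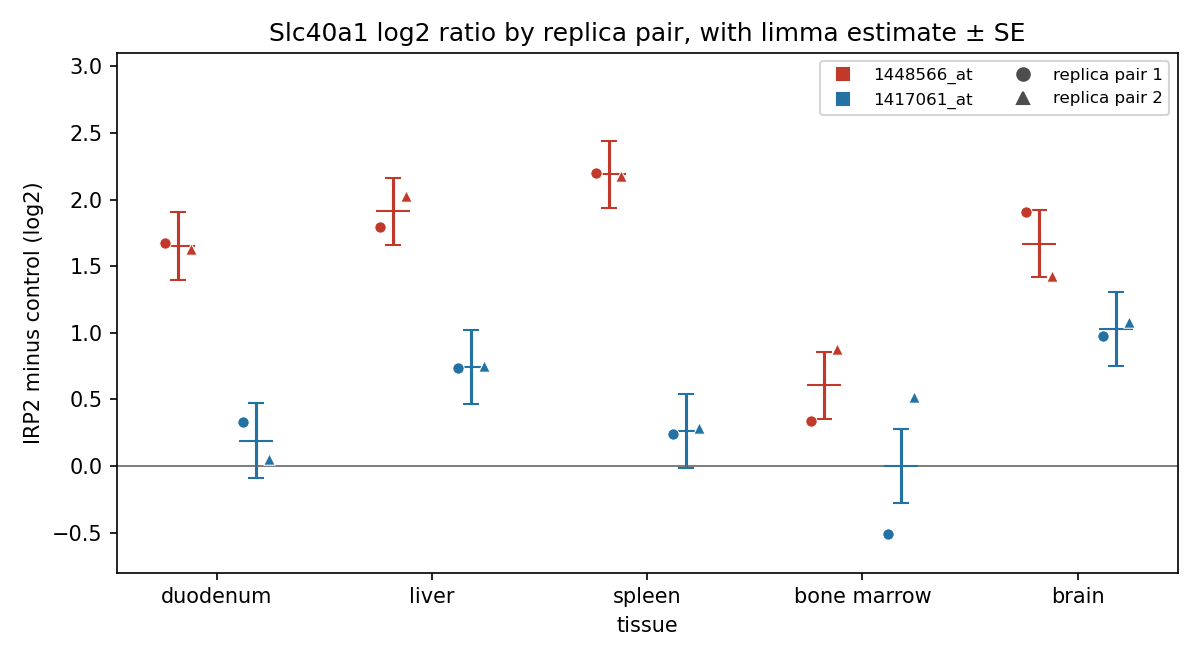
IRP2 minus control ratio of Slc40a1 (log2) in each replica pair, by tissue, with the limma estimate as a horizontal tick and its SE as the error bar; 1448566_at in red, 1417061_at in blue. The red points lie above the blue points of the same pair in 10 of 10 pairs, and the bone marrow estimate is the lowest of each colour.

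The disagreement between the probe sets was itself tested. In each pair, the ratio on 1417061_at was taken from the ratio on 1448566_at. The difference was 1.35 and 1.58 in duodenum, 1.06 and 1.28 in liver, 1.96 and 1.89 in spleen, 0.85 and 0.36 in bone marrow, and 0.93 and 0.35 in brain (log2, replicates 1 and 2). It was positive in 10 of 10 pairs, widest in spleen and narrowest in bone marrow and brain.

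The mean difference was 1.16 ± 0.56 (SD, n = 10 pairs), 2.23-fold, with p = 0.00195 in an exact sign-flip permutation test, two-sided, the smallest p that 10 pairs allow. The test took the 10 pairs as independent. Pairs of the same tissue may share a pool of RNA, so this p does not measure the spread between tissues or mice. Among the 6299 genes with at least 2 tested probe sets, the widest distance between their mean ratios had a median of 0.127 and a 99th percentile of 0.558 (log2). Slc40a1 was 1 of 12 genes, or 0.191%, at 1.16 or more. A distance this wide needs a probe set with a ratio far from 0, and 0.365% of tested probe sets were called higher on the mean. The share is thus not one among enriched genes. Slc11a2, from -0.10 to 1.45, and Tfrc, from 1.90 to 3.30 (log2), both IRE mRNAs named below, parted more widely than Slc40a1. Across the 10 control arrays the levels on the Slc40a1 probe sets nevertheless ran together, with a Pearson r of 0.968 after each array's median was subtracted. Across the 10 pairs the ratios had an r of 0.462; each of these correlations holds arrays of 5 tissues and is given as a description.

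The probe sets also sat at different heights on the arrays. In duodenum controls, 99.7% of tested probe sets were dimmer than 1417061_at and 96.7% were dimmer than 1448566_at. In spleen controls the shares were 98.8% and 85.5%, and in liver controls 98.3% and 82.1%. In bone marrow controls they were 95.7% and 72.6%, and in brain controls 74.6% and 8.29%. The probe set nearer the top of the array had the lower ratio in every tissue. Across tissues, 1417061_at had its highest ratio in brain, where it was dimmest, but its lowest in bone marrow, where it was next dimmest. On 1448566_at brain was also the dimmest, and the highest ratio was in spleen. The part of brightness in the ratio was not tested.

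The ratios were also counted against probe sets at least as bright in the control reaction. The Slc40a1 probe set itself is included in both numbers of each count. For 1448566_at, a ratio as high was found for 2 of 988 such probe sets in duodenum, 5 of 5394 in liver and 3 of 4376 in spleen. The counts were 59 of 8274 in bone marrow and 16 of 27654 in brain, where nearly all tested probe sets were brighter. For 1417061_at they were 4 of 76 in duodenum, 3 of 506 in liver, 6 of 349 in spleen, 18 of 7666 in brain and 216 of 1310 in bone marrow.

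**Figure D3:**
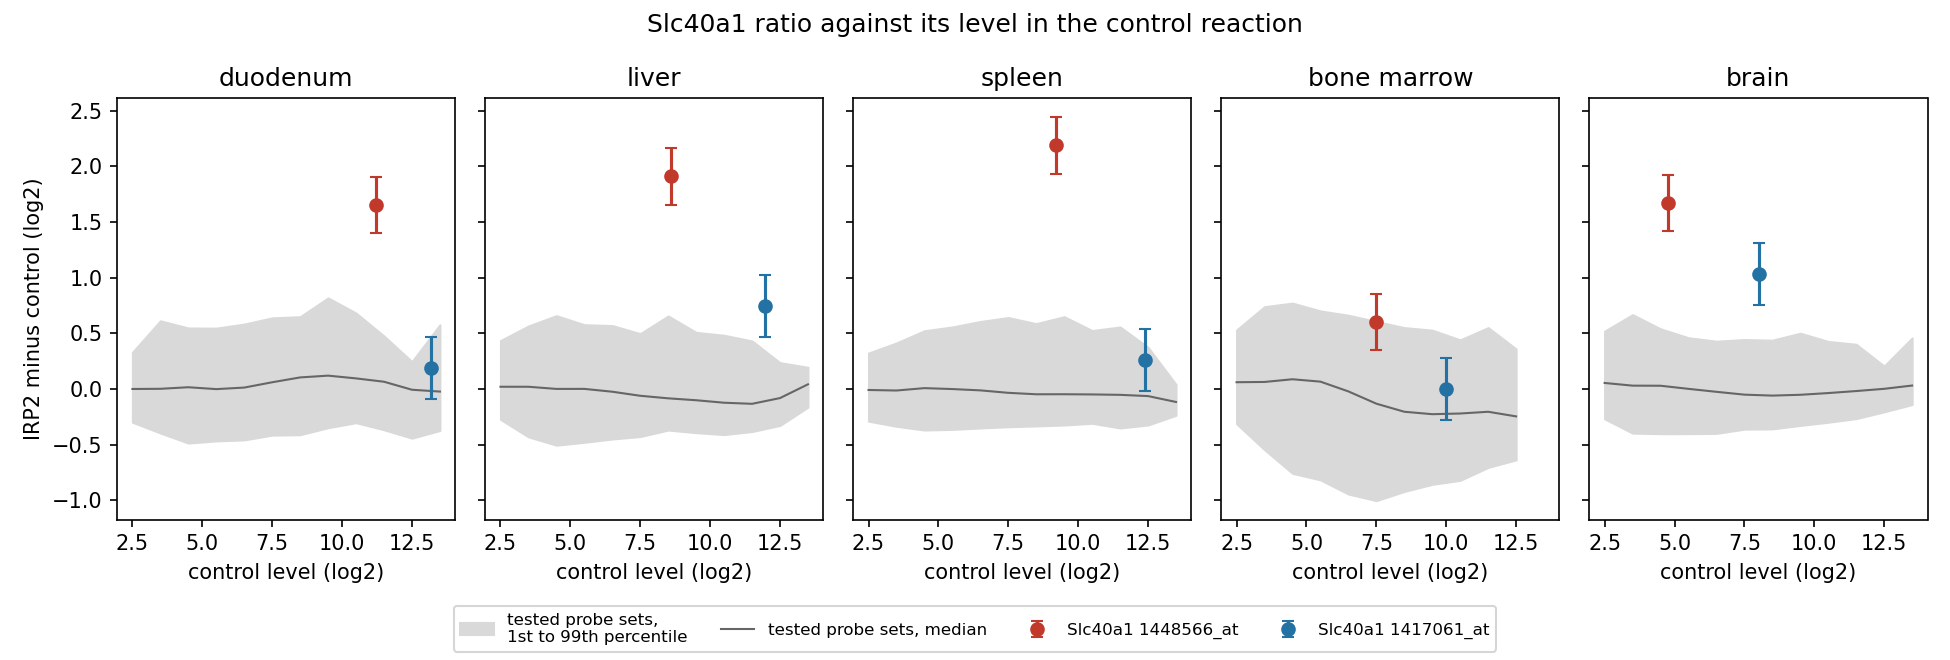
IRP2 minus control ratio of Slc40a1 (log2, limma estimate ± SE) against its mean level in the control reaction (log2), 1 panel per tissue, over the band between the 1st and 99th percentile of all tested probe sets in bins of 1 log2 unit. Probe set 1448566_at lies far above the band in duodenum, liver, spleen and brain and at its edge in bone marrow, and 1417061_at lies above it in liver and brain.

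The level of Slc40a1 without IRP2 followed the same tissue order on both probe sets. Relative to the array median, 1448566_at averaged 5.52 ± 0.42 in duodenum, 3.81 ± 0.09 in spleen and 2.93 ± 0.00 in liver controls (log2, SD, n = 2 each). Bone marrow controls averaged 1.99 ± 0.43, and brain controls -0.78 ± 0.19. The arrays of neighbouring tissues in this order did not overlap.

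On 1417061_at the control means were 7.51 ± 0.38 in duodenum, 7.00 ± 0.14 in spleen, 6.30 ± 0.12 in liver, 4.52 ± 0.68 in bone marrow and 2.49 ± 0.12 in brain (log2 above the array median, SD, n = 2 each). Here too the neighbours did not overlap, although duodenum and spleen were only 0.14 apart at their nearest arrays. In the IRP2 reactions the order was the same on both probe sets after the array medians were subtracted. That order did not hold for liver and spleen on 1417061_at under other scalings. Spleen lay above liver by only 0.0026 at the nearest arrays after median subtraction, the arrays overlapped as deposited, and after quantile normalization over all arrays liver, at 12.49, lay above spleen, at 12.32, without overlap (log2). These are levels of RNA recovered without IRP2, in bulk tissue, so fewer expressing cells and less RNA per cell cannot be told apart.

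Markers of macrophages, a cell type rich in ferroportin, were measured for 10 of 10 genes. Their mean level above the array median in control arrays was 4.10 to 4.30 in spleen, 3.00 to 3.03 in liver, 1.98 to 2.20 in bone marrow, 1.32 to 1.40 in duodenum and 1.01 to 1.36 in brain (log2). Slc40a1 followed them except in duodenum, where it was highest. Their summed linear value in spleen was 22814 to 25809 in IRP2 arrays and 25092 to 25976 in control arrays. None of the 10 was called between the reactions in any tissue, where 0.00995% to 0.073% of all probe sets were called higher. With shares this low, 0 of 10 is no result about these markers. At an unadjusted p under 0.05 there were 2 in bone marrow and 0 elsewhere.

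The 5 erythroid markers on the array summed to 15179 to 16251 in spleen IRP2 arrays and 7090 to 8487 in spleen controls, and 1 of the 4 tested was called higher there in limma, where 0.063% of all probe sets were. The same gene was called in liver, in brain and on the mean over tissues, with shares over all probe sets of 0.0332%, 0.0597% and 0.365%. In bone marrow the sums were 7940 to 9449 in IRP2 arrays and 6228 to 10499 in controls. There 0 were called, where 0.00995% of all probe sets were called higher, and 1 had an unadjusted p under 0.05. The called gene was Alas2, the erythroid enzyme that opens heme synthesis, whose mRNA carries an IRE of its own. Alas2 is part of the sums above and had a ratio of 2.07 in spleen (log2). The median ratio of the 4 tested markers was -0.06 there. With replicate pairs as a block, Alas2 was also called in bone marrow, at 0.94 ± 0.19 (log2, SE) with an adjusted p of 0.0489, where 0.378% of probe sets were called higher. The part of either cell type in the Slc40a1 values was not tested.

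The ratio of 1448566_at was highest in spleen, followed by liver, brain, duodenum and bone marrow. The spleen pairs lay above the liver pairs, and the duodenum pairs above the bone marrow pairs. Liver and brain overlapped, as did brain and duodenum, and the place of brain rests on its dim controls. On 1417061_at the order was brain, liver, spleen, duodenum and bone marrow, with the spleen, duodenum and bone marrow pairs overlapping.

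These differences between tissues did not pass the test. The moderated F test over the 5 tissue ratios had an adjusted p of 1.0 for each probe set, with 0.00332% of probe sets called. The widest pairwise difference, spleen minus bone marrow on 1448566_at, was 1.58 ± 0.36 (log2, SE), with an unadjusted p of 0.000467 and an adjusted p of 1.0. With replicate pairs as a block, limma gave it 1.58 ± 0.24, with an unadjusted p of 2.15e-05 and an adjusted p of 0.162. The F test with the block had an adjusted p of 0.275 on 1448566_at and 0.749 on 1417061_at. None of the 10 pairwise differences was called for either probe set in limma, and 0.00332% of tested probe sets were called between spleen and bone marrow.

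The IRE mRNAs are the established targets of the IRPs, and 6 of the 8 listed were measured: Slc40a1, Tfrc, Slc11a2, Alas2, Fth1 and Epas1. On each gene's brightest probe set, 4 of 6 were called higher on the mean over tissues and 0 lower, where 0.365% of all probe sets were called higher and 0.00663% lower. All 6 were higher at an unadjusted p under 0.05. The median of the 6 was 1.14, against -0.02 over all tested probe sets (log2). Slc40a1 was 1 of the uncalled genes, since its brightest probe set is 1417061_at. With replicate pairs as a block, 6 of 6 were called, and 1.07% of all probe sets were then called higher.

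Over all 14 tested probe sets of these genes, 9 were called higher, and the probe sets of Slc40a1 were not the only ones of a gene to part. Slc11a2, the iron importer DMT1, had 1.45 ± 0.12 on its brightest probe set and 0.63, 0.28 and -0.10 on the others (log2). Its transcripts are known to end in different ways, with and without the IRE. Which transcripts each probe set of Slc11a2 or Slc40a1 reads was not tested. Tfrc, the transferrin receptor, had 1.90, 2.31 and 3.30, and Fth1, the ferritin heavy chain, 0.83 and 1.13. Epas1, a hypoxia factor, had 0.46 ± 0.14 with an adjusted p of 0.576 on the brighter probe set and 0.77 ± 0.13 with an adjusted p of 0.00688 on the other.

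The proteins that work with ferroportin or set its amount were covered by a list of 35 symbols, of which 31 were on the array and 29 tested. Hfe2 and Fam132b on it are older symbols of Hjv and Erfe, which are listed too. The list also holds genes of iron uptake and ferritin turnover, such as Slc11a2, Slc39a14 and Ncoa4. On the brightest probe sets, 1 was called higher on the mean over tissues and 0 lower, where 0.365% of all probe sets were called higher and 0.00663% lower. The median of the 29 was 0.01, against -0.02 over all tested probe sets (log2), and 15 were above 0. The called gene was Slc11a2, already named, which is on both lists. At an unadjusted p under 0.05 it was also the only one.

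By tissue, 1 gene of this list was called higher in duodenum and 1 in liver, both times Slc11a2, and 0 in spleen, bone marrow and brain. Over all tested probe sets the shares called higher were 0.073% in duodenum and 0.0332% in liver, and 0.063% for spleen, 0.00995% for bone marrow and 0.0597% for brain. At an unadjusted p under 0.05, 1 gene was higher in each of these 3 tissues, and 2 were lower in bone marrow. With replicate pairs as a block, Slc11a2 was called in spleen and bone marrow as well, where 0.292% and 0.378% of probe sets were called higher.

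The ferroxidases that hand exported iron to transferrin had ratios near 0. Hephaestin (Heph), the enterocyte form, had 0.16 ± 0.18 on the mean over tissues (log2, SE). In duodenum, where its control level was 10.66, it had 0.39 ± 0.39. Ceruloplasmin (Cp), the plasma and glial form, had 7 tested probe sets with mean ratios between -0.06 and 0.12. All had adjusted p of 1.0.

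The hepcidin arm gave a like picture. Hamp, hepcidin itself, had 0.05 ± 0.09 on the mean over tissues and 0.25 ± 0.20 in liver (log2, SE). Bmp6 and Hjv, which drive its transcription, had 0.05 and -0.05, Tmprss6, a protease that restrains it, had 0.05, and Hfe and Tfr2, which sense transferrin iron, had -0.06 and -0.11. None passed the test. Hamp and Bmp6 were dim, with control means of 5.06 to 5.95 and 4.88 to 5.47 (log2), near or below the array medians, so little can be read from their ratios.

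Genes that act on ferroportin in macrophages also did not pass. Hmox1, which frees iron from heme, had -0.04 ± 0.13 on the mean over tissues and -0.23 ± 0.29 in spleen (log2, SE). Spic, a transcription factor of splenic iron-recycling macrophages, had 0.18 ± 0.25, and Bach1 and Nfe2l2, a repressor and an activator of Slc40a1 transcription, had 0.03 and -0.16. Rnf217, a ubiquitin ligase reported for ferroportin, had -0.14 ± 0.11, and the iron chaperone Pcbp2 had 0.04.

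**Figure D4:**
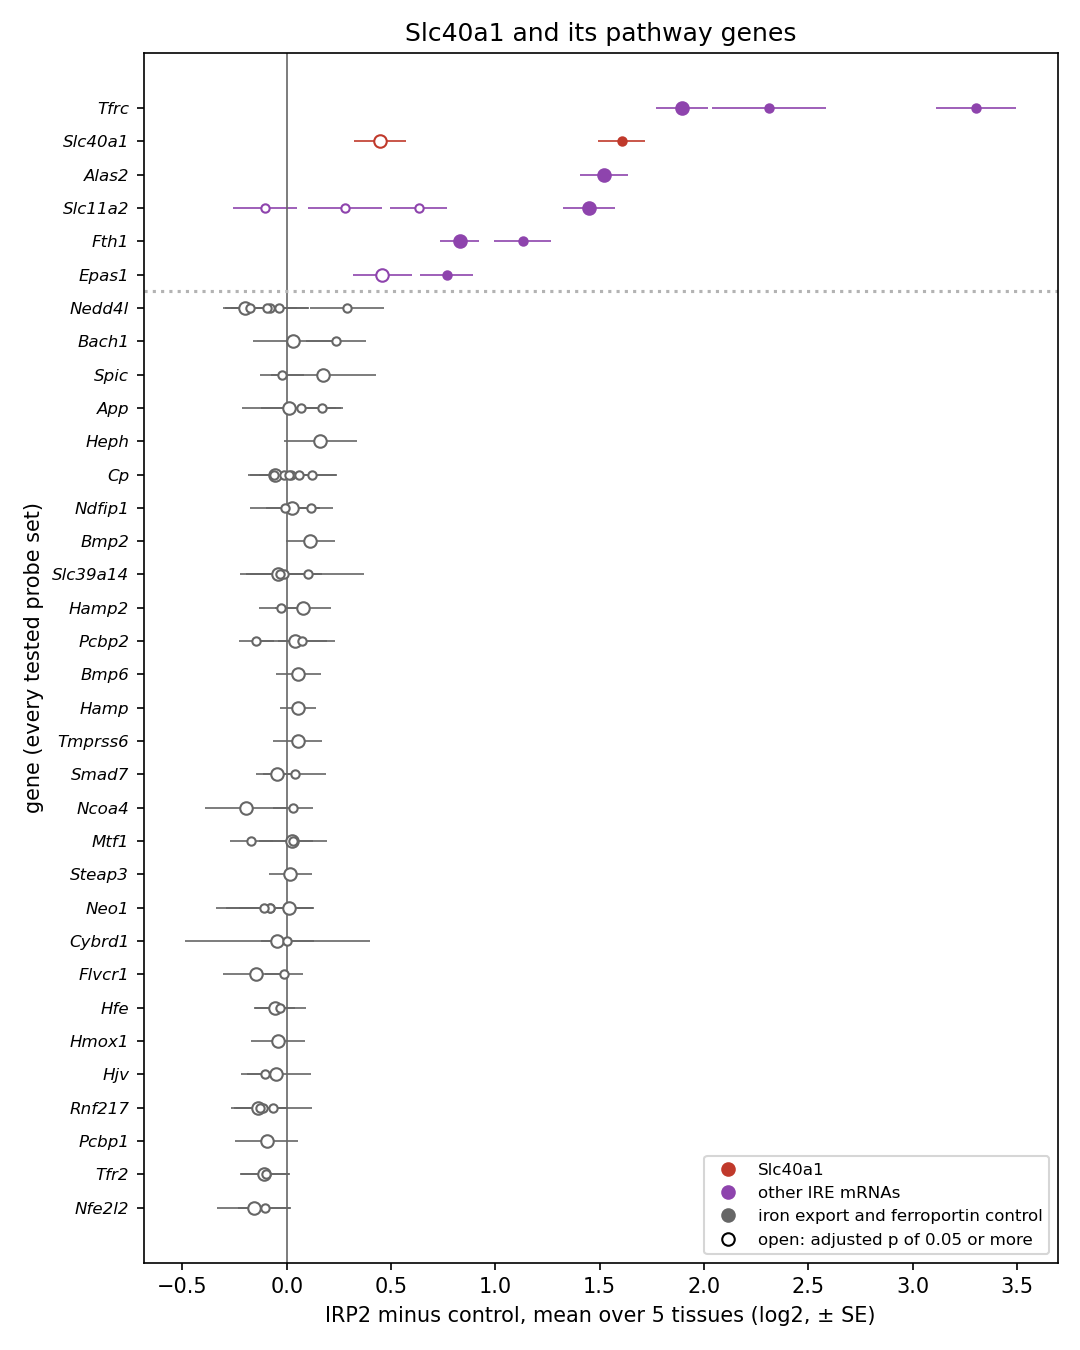
IRP2 minus control ratio averaged over 5 tissues (log2, limma estimate ± SE) for every tested probe set of the IRE mRNAs (above the dotted line) and of the other genes of iron export and ferroportin control (below it); the large symbol is each gene's brightest probe set, and open symbols have an adjusted p of 0.05 or more. Slc40a1 has its smaller filled symbol at 1.61 and its open one at 0.45, and the genes below the line lie near 0.

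The probe sets whose 10 pair ratios lay nearest to those of 1448566_at, by root mean square difference, were those of Egr2 (0.356), Fam98b (0.365), Erg (0.409), Hmces (0.415) and Cct7 (0.425, all log2). Their mean ratios over tissues were 1.69 for Egr2, 1.60 for Fam98b, 1.44 for Erg, 1.37 for Hmces and 1.33 for Cct7. Egr2 and Erg are transcription factors, and Cct7 is a chaperonin subunit. The second probe set of Egr2 had 1.62 and that of Cct7 1.13, while that of Erg had 0.12.

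By level in the 10 control arrays, less the array median, the probe sets most like 1417061_at were those of Prrc1 (Pearson r 0.992), Cib1 (0.986), Slc12a7 (0.985), Nus1 (0.984) and Tapbp (0.982). Those most like 1448566_at were Neat1 (0.982), Sft2d2 (0.979), Pdha1 (0.979), Galnt4 (0.977) and Tmem106a (0.976). Other probe sets of the first 5 genes had 0.714, 0.336 and 0.291 (Prrc1), 0.436 (Slc12a7), 0.052, 0.793, -0.671 and 0.715 (Nus1) and 0.380 (Tapbp). Those of the second 5 had 0.155 (Neat1), 0.923, 0.913 and 0.961 (Sft2d2), 0.108 (Pdha1), 0.689 and 0.421 (Galnt4) and 0.934 (Tmem106a). The high r thus holds for the named probe sets, and for most of the genes not for the others. The 10 control arrays fall into 5 tissues of 2, so the values describe a shared tissue order. The mean ratios of the 10 nearest probe sets lay between -0.21 and 0.05 (log2), none of them called, where 0.365% of all probe sets were called higher.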

How the data were processed

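RNA from IRP2 and control immunoprecipitations of 5 mouse tissues was measured on 20 arrays, 2 per group. The authors deposited log2 probe set values; per the series' design text these came from RMA in Bioconductor or from MAS5 in GCOS followed by quantile normalization, and neither which applies nor any version is stated. Array medians differed between tissues, so IRP2 and control reactions were compared within tissues. Symbols came from the platform annotation: 34958 probe sets had 1 symbol, 932 several and 9211 none, and 18146 of 18194 symbols were in the RefSeq gene table.

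After 64 Affymetrix controls were set aside, 30153 probe sets (66.9%) at or above their array's median on at least 2 arrays entered 1 limma fit (limma 3.58.1, R 4.3.3) that gave every group of tissue and reaction its own mean, with 10 residual and 5.34 prior degrees of freedom. Benjamini-Hochberg adjustment ran over every tested probe set, and adjusted p below 0.05 counted as called. Counts at an unadjusted p under 0.05 are given without the share over all probe sets, so they have no background beside them. The precision is limited by 2 arrays per group.

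Arrays with the same replicate number deviated together from their group means (r across probe sets: brain 0.923, duodenum 0.676, liver 0.565, spleen 0.385, bone marrow 0.251), so another fit blocked on tissue and replicate, with 5 residual and 7.52 prior degrees of freedom. The pairing comes from these values and from the labels' statement that controls ran in parallel. Probe sets were compared with an exact sign-flip test over 1024 sign patterns, which takes the replicate pairs as independent. The fits were tested on simulated data. The members, gene lists, markers and tests were chosen with earlier results of these data known. Named genes were Slc40a1, listed pathway genes, the 5 probe sets nearest in ratio to the called Slc40a1 probe set, and the 5 nearest each in control level. Alternatives were other filters, centring, quantile normalization, per-tissue fits, averaged probe sets and leaving out each array.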

Additional observations from a re-analysis of the deposited data

How the results depend on the processing

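No alternative reversed a called ratio. With the mean of both probe sets per gene, Slc40a1 had 1.03 on the mean over tissues (adjusted p 0.000189), and 0.92 in duodenum (0.825), 1.33 in liver (0.194), 1.23 in spleen (0.151) and 1.35 in brain (0.0975), none of these called. On 1417061_at, the mean over tissues was called under the replicate block, at 0.45 with an adjusted p of 0.0303, after quantile normalization within tissues at 0.52 (0.00565) and over all arrays at 0.50 (0.00939); an exact sign-flip permutation test over the 10 pairs, chosen after seeing the data, gave 0.45 with p = 0.0176. That sign-flip test also took the 2 pairs of a tissue as independent. Brain on 1417061_at was called after quantile normalization within tissues, at 1.07 (adjusted p 0.0440). Fitted on its own 4 arrays, 1448566_at was not called in duodenum at 1.65 (adjusted p 0.452) or brain at 1.67 (1.0), where 2 residual degrees of freedom remained. The replicate block changed no other call on Slc40a1, and on 1448566_at in bone marrow its adjusted p was 0.0960. The IRE mRNA count of 4 became 6 with the block.

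Leaving out 1 array at a time gave, on 1448566_at, 1.38 to 1.92 in duodenum, 1.80 to 2.02 in liver, 2.13 to 2.25 in spleen, 0.31 to 0.90 in bone marrow, 1.45 to 1.89 in brain and 1.55 to 1.66 on the mean. On 1417061_at it gave -0.05 to 0.44, 0.65 to 0.84, 0.16 to 0.36, -0.47 to 0.47 and 0.83 to 1.24 in the same tissues, and 0.35 to 0.54 on the mean. The adjusted p of the tissue difference ran between 0.430 and 1.0 on 1448566_at and between 0.501 and 1.0 on 1417061_at, the difference between probe sets between 1.07 and 1.25, and the IRE mRNA count between 4 and 5.

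The control level order of the tissues was the same after median centring, as deposited and after quantile normalization over all arrays. Dim control signal limits the brain ratio of 1448566_at, and 2 arrays per group limit all ratios.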
